A study of Mus musculus with 8 samples.

Results

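The genes described here are those of the autophagy machinery, chosen by symbol from the table of genes that passed the study's read threshold. They comprise all symbols that begin with Atg, Ulk or Wipi and a digit, with Gabarap, Map1lc3 or Tecpr, and a set of named genes such as Sqstm1, Becn1, Pik3c3, Rb1cc1, Calcoco1, Bnip3l and Pink1. By this rule 42 genes were found among the 10588 genes tested, and all 42 were tested. Beyond that read threshold, the rule itself uses no measured value, although it was written with earlier results of these data known.

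Macroautophagy delivers proteins, aggregates and organelles to the lysosome. A kinase complex around ULK1 starts the process, a lipid kinase complex around PIK3C3 and Beclin 1 marks the growing membrane with phosphatidylinositol 3-phosphate (PI3P), and ATG9 vesicles and ATG2 supply lipid. Ubiquitin-like conjugation then attaches proteins of the ATG8 family (LC3 and GABARAP) to the membrane, where cargo receptors such as p62 bind them before the autophagosome fuses with the lysosome. Neurons depend on this route because they do not divide, and several of its genes are mutated in inherited amyotrophic lateral sclerosis or frontotemporal dementia, the diseases in which TDP-43 leaves the nucleus. MiT/TFE transcription factors (TFEB, TFE3, MITF) are known to induce many genes of autophagy and of the lysosome.

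Poly(A) RNA was sequenced from 8 C57BL/6 mice, 4 bigenic and 4 nontransgenic, with the right cortex as the tissue. Bigenic mice (Camk2a-tTa / deltaNLS-hTDP-43) carried a tetracycline transactivator under the Camk2a promoter, which is active in excitatory forebrain neurons, together with a human TDP-43 that lacks a working nuclear localization signal and is repressed by doxycycline. Controls were born to parents heterozygous for these transgenes, carried neither, and followed the same diet. The diet was withdrawn from both groups when the mice were 28 days old, the tissue was taken at 10 days off doxycycline, and 3 mice of each group were male. No mice with a single transgene were analysed here, so the human TDP-43 and the transactivator cannot be told apart as sources of a difference. The tissue was whole cortex, whereas the transgene is driven in one class of neuron, and in such bulk RNA fewer cells of a type and less RNA per cell cannot be told apart.

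The deposited values are normalized counts, whole numbers that are not raw reads, with totals of 20.1 M to 22.0 M per mouse. The depth behind them was estimated at 10.6 M to 31.9 M reads per mouse, and 3 reads correspond to 1.94 to 6.20 normalized counts, below every value given here for an autophagy gene. The transcript of the transgene stood at 29375 to 41550 normalized counts in bigenic mice and at 5 to 80 in the nontransgenic mice. The second bigenic mouse, the shallowest of the 8 libraries, stood apart from the other 3 bigenic mice on the first and on the second principal component (45.99 against 12.8 to 15.1, and -22.30 against 15.05 to 15.87). The log2(fold change) of an autophagy gene is therefore given with and without this mouse where its omission changes the call or moves the value by over 1.5 times. Values are listed below in one fixed order of mice within each group, with the mouse that stands apart in the second place. The numbers carry no other meaning. Nothing in the sources states from how many litters or libraries the mice came, so p-values measure the spread between these 8 samples.

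Of the 42 autophagy genes, 13 were upregulated and 3 were downregulated in the bigenic mice (limma, Benjamini-Hochberg adjusted p-value below 0.05 over all genes tested), and 26 did not pass the test. Of all genes tested, 20.5% were called higher, 15.4% lower and 35.9% in either direction, against 31.0%, 7.14% and 38.1% of the autophagy genes. The share of autophagy genes called was thus near that of all genes. Their median log2(fold change) was 0.17 against 0.03 over all genes, and 31 of the 42 lay above 0 (73.8%, against 53.3% of all genes). The changes were small. The median absolute log2(fold change) was 0.25 for the autophagy genes and 0.25 for all genes, none of the 42 changed by 2-fold, and 4 of the called genes changed by 1.5-fold or more: Atg9a and Calcoco1 upward, Ulk2 and Bnip3l downward. Without the second bigenic mouse the same 13 and 3 genes were called, Map1lc3b was added to the higher and Becn1 to the lower, and the median fell to 0.10. Of the 31 genes above 0, 6 then lay below it (Atg16l1, Wipi1, Atg12, Atg16l2, Atg4d and Snx14), so the upward share rests in part on this mouse. The background then was 45.5% called, with 25.3% higher and 20.2% lower. With each of the 8 mice left out in turn, 9 genes were called every time: Rb1cc1, Ulk1, Uvrag, Atg9a, Calcoco1 and Wdfy3 higher, and Ulk2, Bnip3l and Tecpr2 lower. All other calls were lost when some single mouse was omitted. The number of upregulated genes was 8 without the first, 7 without the second and 7 without the third nontransgenic mouse, and 9 to 14 with any other mouse left out. The normalized counts of the groups did not overlap for 15 genes that were higher in the bigenic mice and 4 that were lower, which are 35.7% and 9.52% of them. The 15 include Atg7, which passed the read threshold only through bigenic mice. Over all genes 22.3% and 16.7% did not overlap in these directions, and 39.0% in either.

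**Figure D1:**
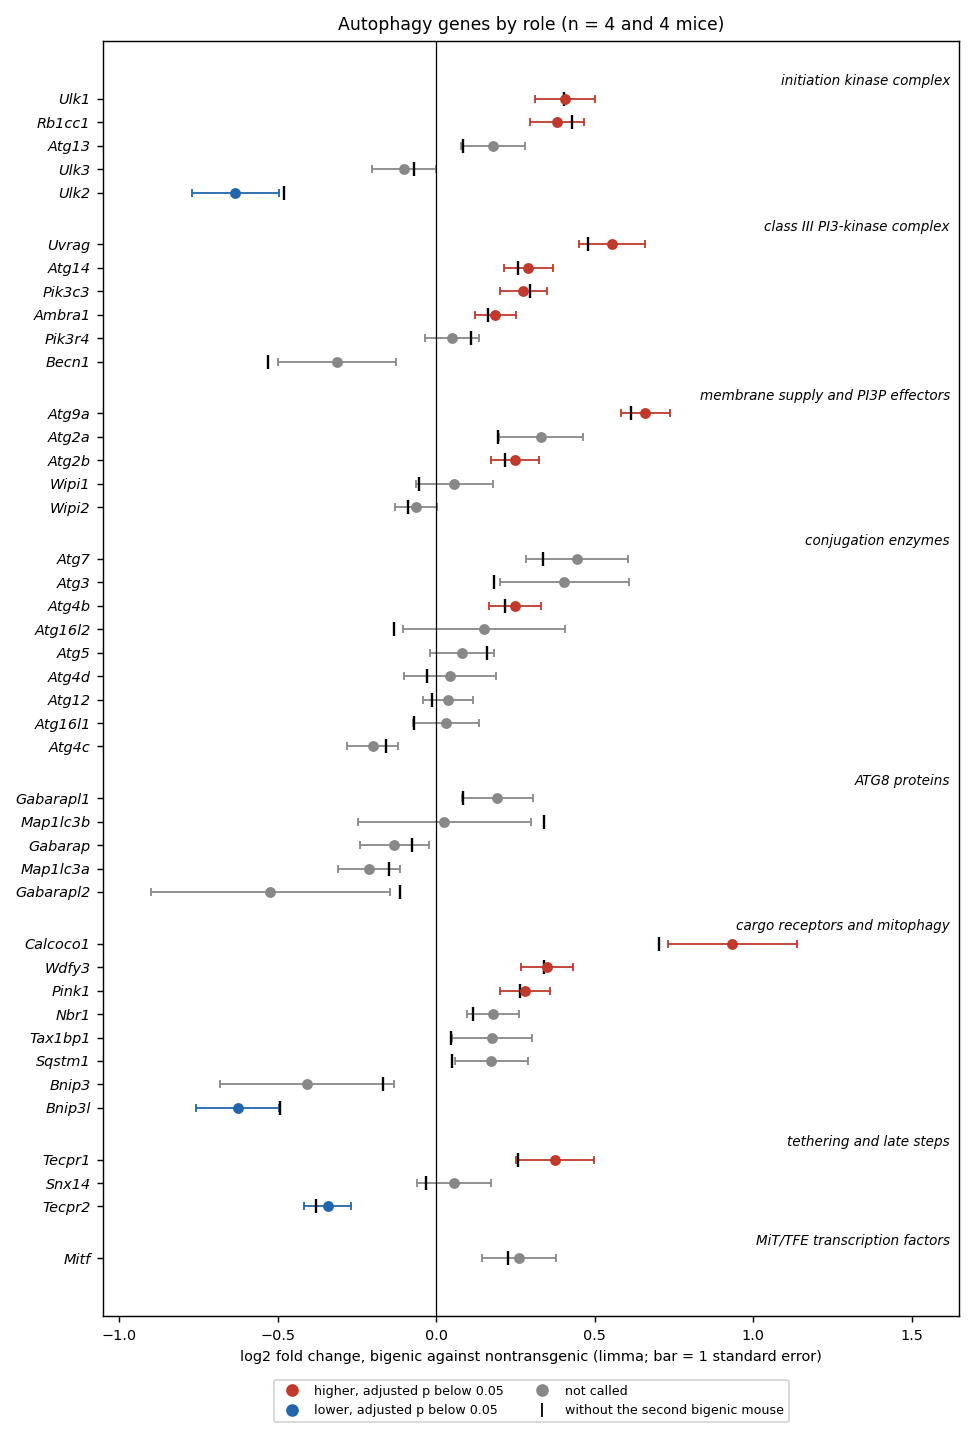
Log2(fold change) of the 42 autophagy genes in bigenic against nontransgenic mice (horizontal axis; bars are 1 standard error, n = 4 and 4), grouped by role on the vertical axis, with a vertical tick for the value without the second bigenic mouse. The PI3-kinase complex holds 4 called genes of 6, all higher, and the ATG8 proteins hold 0 of 5, where 35.9% of all genes were called. The ticks lie on the other side of 0 from the points only among genes that were not called.

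Autophagy begins with the ULK kinase complex, and here the paralogous kinases moved in opposite directions. Of 5 genes found by the rule for this complex and the related kinase ULK3, Ulk1 and Rb1cc1 were upregulated and Ulk2 was downregulated. Atg13 and Ulk3 did not pass the test. Atg101, the partner of ATG13, was listed under an older symbol and was downregulated (-0.42, limma adjusted p = 0.0174), as described below. Ulk1, the kinase that phosphorylates the downstream complexes, was at 1505, 1795, 1846 and 2055 normalized counts in bigenic mice and at 1345, 1346, 1312 and 1399 in the nontransgenic mice. All 4 bigenic mice lay above all 4 controls, with the first bigenic mouse closest to them. This is a log2(fold change) of 0.41 ± 0.10 (SE, limma adjusted p = 0.00937), and 0.40 without the second bigenic mouse. The call of Ulk1 was lost after a correction for GC content and length that was chosen after seeing the data (0.23, limma adjusted p = 0.0885). Ulk2, which can stand in for ULK1 in many cells, was at 2687, 1663, 2517 and 2418 in the bigenic mice against 3654, 3570, 3666 and 3294 in the nontransgenic mice. The groups did not overlap, and the second bigenic mouse was the lowest. The log2(fold change) of Ulk2 (chr11:61589151-61668575, minus strand, build mm9 as for all gene positions given here) was -0.63 ± 0.14 (limma adjusted p = 0.00625), and -0.48 without that mouse.

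Rb1cc1 encodes FIP200, the scaffold that holds the kinase complex together. It was at 6184, 5896, 7057 and 6941 normalized counts in bigenic mice and at 5479, 4740, 5071 and 4723 in the controls, again with no overlap between the groups. The log2(fold change) was 0.38 ± 0.09 (limma adjusted p = 0.00744) with all mice and 0.43 without the second bigenic mouse, which was the lowest of the bigenic mice for this gene. Atg13, the other scaffold, had a value of 0.18 (limma adjusted p = 0.194), or 0.08 without the second bigenic mouse, with that mouse at 2252 and the other bigenic mice between 1692 and 1797. Ulk3, a related kinase, had a value of -0.10 (limma adjusted p = 0.453).

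Within the PI3-kinase complex, which makes the PI3P that marks the nascent autophagosome, 4 of 6 genes were upregulated and none was downregulated by limma (0 also at an unadjusted p-value below 0.05). Over all genes 20.5% were called higher and 15.4% lower, and 2184 of 10588 were lower at an unadjusted limma p-value below 0.05. Groups of so few genes cannot be compared closely with these shares, here and for the other roles. The largest difference was in Uvrag (chr7:106035253-106289654, minus strand), the subunit that directs the complex to endosomes. Uvrag was at 986, 1231, 989 and 1014 normalized counts in bigenic mice and at 735, 616, 759 and 761 in the nontransgenic mice. The second bigenic mouse was the highest, but the other 3 lay close together and above every control. On the log2 scale the difference was 0.55 ± 0.10 (limma adjusted p = 0.00296), and 0.48 without that mouse.

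Atg14, the subunit that takes the same kinase to the site of autophagosome formation, was at 734, 800, 738 and 718 in the bigenic mice against 623, 578, 594 and 649 in the controls. Pik3c3, the catalytic subunit, was at 1640, 1460, 1503 and 1490 against 1340, 1190, 1249 and 1257. For both genes every bigenic mouse exceeded every control. The log2(fold change) was 0.29 ± 0.08 for Atg14 and 0.27 ± 0.07 for Pik3c3 (limma adjusted p = 0.0149 and 0.0164). These calls were narrow, since they were lost without the second nontransgenic mouse (0.0538 and 0.0589) or without the third (0.0504 and 0.0506).

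Ambra1, a Beclin 1-binding regulator, was at 1792, 1942, 1790 and 1873 in the bigenic mice and at 1623, 1626, 1610 and 1636 in the nontransgenic mice. The groups were well separated but close in level, at 0.19 ± 0.07 on the log2 scale (limma adjusted p = 0.0476). The call was kept without the second bigenic mouse and lost without any one of the other 7 (limma adjusted p between 0.0525 and 0.118), without the filter on low values (0.0726), after quantile normalization (0.161), and after the correction for GC content and length (0.359, with a log2(fold change) of 0.073). Pik3r4, the regulatory subunit VPS15, had a value of 0.05 (limma adjusted p = 0.672), or 0.11 without the second bigenic mouse.

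Becn1, which encodes Beclin 1, the subunit shared by the ATG14 and UVRAG forms of the complex, was the one gene of this group with a negative value. It was at 1842, 3098, 1610 and 1656 normalized counts in bigenic mice and at 2271, 2416, 2452 and 2702 in the nontransgenic mice. Of the bigenic mice, 3 lay below all controls and the second lay above all of them. With all mice the log2(fold change) was -0.31 ± 0.19 (limma adjusted p = 0.211), with a 95% confidence interval of -0.73 to 0.10. Without the second bigenic mouse it was -0.53 (limma adjusted p = 0.000274). In GENCODE, 43.9% of the exon bases of Becn1 (chr11:101147266-101163600, minus strand) are shared with Cntd1 on the opposite strand, and nothing states that reads were counted by strand.

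Among the genes that bring membrane to the phagophore, Atg9a stood out with a rise seen in every bigenic mouse. ATG9A is the lipid scramblase carried on small vesicles that seed the membrane. It was at 2413, 2912, 2535 and 2733 normalized counts in bigenic mice and at 1674, 1626, 1748 and 1642 in the nontransgenic mice. The lowest bigenic mouse lay well above the highest control, and the second bigenic mouse was the highest. Atg9a had a log2(fold change) of 0.66 ± 0.08 (1.58-fold, 95% confidence interval 0.48 to 0.83 on the log2 scale, limma adjusted p = 0.000286). This was the smallest adjusted p-value among the 42 genes, and it stayed at or below 0.00199 with any one mouse left out. Without the second bigenic mouse the value was 0.61. No other annotated exon overlaps those of Atg9a (chr1:75177440-75188497, minus strand).

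The lipid transfer proteins ATG2A and ATG2B work with ATG9A. Atg2b was at 2089, 2356, 2187 and 2207 in the bigenic mice against 1906, 1725, 1822 and 1990 in the controls, without overlap between the groups. Its difference was 0.25 ± 0.08 on the log2 scale (limma adjusted p = 0.0273). The call was lost without the third or the fourth bigenic mouse or without the first, the second or the third nontransgenic mouse (limma adjusted p between 0.0531 and 0.0917), and after the GC and length correction (0.16, limma adjusted p = 0.0523). Atg2a had a log2(fold change) of 0.33, which did not pass the test (limma adjusted p = 0.0779), and 0.20 without the second bigenic mouse. The PI3P-binding proteins that recruit the conjugation machinery had values near 0, with 0.06 for Wipi1 and -0.06 for Wipi2 (limma adjusted p = 0.738 and 0.478), and Wipi1 at -0.054 without the second bigenic mouse.

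Of 9 genes for the enzymes that process ATG8 proteins and join them to lipid, 1 was upregulated and none was downregulated by limma (1, Atg4c, was lower at an unadjusted p-value below 0.05), and their median log2(fold change) was 0.08. The called gene was Atg4b, the main protease that trims and releases ATG8 proteins. Atg4b was at 1024, 1216, 1151 and 1192 in the bigenic mice and at 962, 896, 995 and 1001 in the nontransgenic mice, so that the first bigenic mouse lay just above the highest control. Atg4b differed by 0.25 ± 0.08 on the log2 scale (limma adjusted p = 0.0378). This call was lost without any one mouse other than the first or the second bigenic mouse (limma adjusted p between 0.0511 and 0.116), without the filter (0.0571) and after quantile normalization (0.0554).

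Atg7, the E1-like enzyme that activates both ATG8 and ATG12, did not pass the test, although its values did not overlap between the groups. It was at 211, 263, 170 and 205 normalized counts in bigenic mice and at 161, 166, 126 and 166 in the nontransgenic mice. Its log2(fold change) was 0.45 ± 0.16 (limma adjusted p = 0.0543), and it passed without the third bigenic mouse (0.0310), with every mouse scaled to the same total (0.0494) and after quantile normalization (0.0471). Atg7 passed the read threshold only through bigenic mice, so its direction and the lack of overlap are not independent of the filter. Only 55.9% of the windows of 50 bases in the Atg7 exons occur once in the genome, and the authors kept reads that mapped to one place, so its level is uncertain.

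Atg3, the E2-like enzyme for ATG8, was at 1483, 2238, 1136 and 1047 in the bigenic mice against 1023, 1030, 1124 and 1088 in the controls. The first and the second bigenic mouse were high and the other 2 lay among or near the controls. Its log2(fold change) was 0.40 ± 0.20 (limma adjusted p = 0.145), and 0.18 without the second bigenic mouse. Atg4c, another ATG8 protease, was at 978, 943, 1140 and 1077 against 1199, 1180, 1191 and 1174, lower in each bigenic mouse than in any control. Its log2(fold change) of -0.20 did not pass the test (limma adjusted p = 0.0724), but did without the third bigenic mouse (-0.25, limma adjusted p = 0.0457) and after quantile normalization (-0.25, limma adjusted p = 0.0368). The components of the ATG12-ATG5-ATG16L1 complex, which acts as the E3-like ligase, had values near 0: 0.04 for Atg12, 0.08 for Atg5 and 0.03 for Atg16l1 (limma adjusted p between 0.553 and 0.837). These became -0.015, 0.16 and -0.069 without the second bigenic mouse. Atg16l2 and Atg4d had values of 0.15 and 0.04 (limma adjusted p = 0.668 and 0.830), which became -0.13 and -0.031 without that mouse. For Atg16l2 the second bigenic mouse was at 707 and the other 7 mice between 290 and 448, and 31.1% of the Atg4d exon bases are shared with Kri1 on the opposite strand.

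The promoters of Atg14, Atg7 and Atg3 are shown because they hold the core letters of the element that MiT/TFE factors recognize, TCACGTG or its reverse complement CACGTGA, in the RefSeq window from 250 bases before to 50 bases after the start of the gene (build GRCm38.p6). Each site is written 5′ to 3′ on the strand of the gene, with these letters in capitals.
Atg14, chr14:47568421-47568443, minus strand: caaaatccCACGTGActggccct
Atg7, chr6:114670955-114670977, plus strand: attggtggTCACGTGtgcagtaa
Atg3, chr16:45158726-45158748, plus strand: tccttttgTCACGTGtcctggga
Atg3, chr16:45158749-45158771, plus strand: gagtcgagTCACGTGaggcctta
The letters begin 1 base before the annotated start in Atg14, 133 bases before it in Atg7, and 95 and 72 bases before it in Atg3, where the site nearer to the start also reads CACGTGA from the next base. Of the 42 genes, 34 have a promoter in that table, and 3 of the 34 (8.8%) hold TCACGTG on either strand, against 3.77% of all 32851 promoters. The shorter CACGTG, which is part of the same letters, occurs in 5 of 34 (14.7%), with Atg5 and Bnip3 added, against 7.15% of all. A longer palindrome that contains TCACGTG was also counted and occurs in 0 of the 34, against 107 of all 32851 promoters (0.33%). It is so rare that its absence from 34 genes cannot be told apart from that share. The autophagy genes were counted by gene, with a match in any promoter of the gene, and the background by promoter. These shares are therefore in unlike units and cannot be compared closely. Of the genes that hold TCACGTG, only Atg14 passed the expression test. A match of letters is a description of the sequence and does not show that a factor binds there.

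None of the 5 ATG8 genes, whose proteins coat the autophagosome and bind the receptors, passed limma's test (0 also at an unadjusted p-value below 0.05), and their median log2(fold change) was -0.13. Over all genes 35.9% were called, a share with which 5 genes cannot be compared closely. The summed normalized counts of the 5 genes were 15043, 15671, 16610 and 16465 in bigenic mice and 15373, 15019, 16568 and 14133 in controls, so the ranges of the groups overlapped. The single genes diverged within that sum. Map1lc3a was at 2786, 2624, 3292 and 3300 in the bigenic mice against 3658, 3342, 3686 and 3160 in the controls. The first and second bigenic mice lay below all controls and the other 2 among them, and the log2(fold change) of -0.21 ± 0.10 did not pass the test (limma adjusted p = 0.118, 95% confidence interval -0.43 to 0.01).

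Map1lc3b, which encodes the LC3B protein most used as a marker of autophagosomes, was at 2728, 1454, 3839 and 4049 normalized counts in bigenic mice and at 2880, 2683, 2939 and 2528 in the nontransgenic mice. The third and the fourth bigenic mouse were above every control, the first was among them, and the second was far below all of them. Over all mice the difference in Map1lc3b was 0.03 ± 0.27 on the log2 scale (limma adjusted p = 0.949), with a 95% confidence interval of -0.58 to 0.63. Without the second bigenic mouse it was 0.34 (limma adjusted p = 0.0405). It was -0.13 without the third bigenic mouse and -0.15 without the fourth, and neither of these passed the test. Only 64.6% of its exon windows of 50 bases occur once in the genome.

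Gabarapl1 was at 7939, 10069, 7348 and 7088 normalized counts in bigenic mice and at 6824, 6995, 7695 and 6648 in the controls. The second bigenic mouse was again the extreme one, and the log2(fold change) was 0.19 ± 0.11 (limma adjusted p = 0.202), or 0.08 without it. Gabarap and Gabarapl2 had values of -0.13 and -0.52 (limma adjusted p = 0.370 and 0.303), and of -0.076 and -0.11 without the second bigenic mouse. For Gabarapl2 the second bigenic mouse was at 60 and the other bigenic mice between 131 and 255, and 69.0% of the exon windows of this gene are unique.

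Cargo receptors and mitophagy genes included the largest rise among the 42 genes. Of 8 genes, 3 were upregulated (Calcoco1, Wdfy3 and Pink1) and 1 was downregulated (Bnip3l). Calcoco1, a receptor for the endoplasmic reticulum and the Golgi apparatus, was at 1904, 3228, 1594 and 1614 normalized counts in bigenic mice and at 998, 971, 1010 and 1212 in the nontransgenic mice. Every bigenic mouse exceeded every control, and the second bigenic mouse lay far above the other 3. Calcoco1 had a log2(fold change) of 0.93 ± 0.20 (1.91-fold, limma adjusted p = 0.00631), the largest of the 42 genes. Without the second bigenic mouse it was 0.70. Calcoco1 lies at chr15:102537210-102552609 on the minus strand.

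Bnip3l encodes NIX, an outer membrane receptor for the removal of mitochondria. It was at 1973, 1400, 2078 and 2010 in the bigenic mice and at 3171, 2702, 2995 and 2555 in the controls, with no overlap and with the second bigenic mouse the lowest. Its log2(fold change) was -0.63 ± 0.13 (limma adjusted p = 0.00529), and -0.49 without that mouse. The unique share of its exon windows was 74.6% (chr14:67604076-67627714, minus strand). Its paralog Bnip3 was at 247, 194, 476 and 460 against 473, 442, 456 and 342. The first and the second bigenic mouse lay below all controls, the third lay above all of them and the fourth above all but 1, and the log2(fold change) of -0.41 did not pass the test (limma adjusted p = 0.270) and was -0.17 without the second bigenic mouse. Its unique share was 54.8%.

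Pink1, the kinase that accumulates on damaged mitochondria and activates Parkin, was at 6780, 6903, 6443 and 6620 normalized counts in bigenic mice and at 4981, 5866, 6012 and 5237 in the nontransgenic mice. All bigenic mice were above all controls, and the log2(fold change) was 0.28 ± 0.08 (limma adjusted p = 0.0206). The call was lost without the first or the fourth nontransgenic mouse (limma adjusted p = 0.0636 and 0.0534) and after the GC and length correction (0.13, limma adjusted p = 0.230). Wdfy3, which encodes ALFY, a large adaptor that brings ubiquitinated aggregates to the ATG8 coat, was at 7065, 8221, 8337 and 8789 against 6490, 6030, 6176 and 6681. The groups did not overlap, the first bigenic mouse was closest to the controls, and the log2(fold change) was 0.35 ± 0.08 (limma adjusted p = 0.00921).

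The receptor genes Sqstm1, Nbr1 and Tax1bp1 were not called. Sqstm1, which encodes p62, the receptor found in the ubiquitinated inclusions of these diseases, was at 7122, 9722, 6773 and 6845 normalized counts in bigenic mice and at 6718, 6347, 6836 and 6795 in the nontransgenic mice. The second bigenic mouse stood alone, the first was above the controls, and the other 2 were at their level. With all mice the log2(fold change) was 0.17 ± 0.11 (limma adjusted p = 0.256, 95% confidence interval -0.08 to 0.43), and without the second bigenic mouse it was 0.05. Exons of Sqstm1 share 17.3% of their bases with 3010026O09Rik on the opposite strand. Nbr1, the related receptor, was at 5869, 6790, 5596 and 5632 against 5305, 4926, 5252 and 5564. These values did not overlap, but the gap was narrow and the log2(fold change) of 0.18 did not pass the test (limma adjusted p = 0.113) and was 0.12 without the second bigenic mouse. Tax1bp1, another receptor, was at 7728 in the second bigenic mouse, the highest of the bigenic mice, and its value of 0.18 (limma adjusted p = 0.298) fell to 0.05 without that mouse.

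Genes that tether the autophagosome to the lysosome or act late in its path split as the kinases did. Tecpr2, whose product binds ATG8 proteins and whose loss causes a hereditary neuropathy with spastic paraplegia, was at 1735, 2058, 1910 and 1940 normalized counts in bigenic mice and at 2464, 2439, 2369 and 2404 in the nontransgenic mice. The highest bigenic mouse lay clearly below the lowest control, and the second bigenic mouse was here the one closest to the controls. The log2(fold change) was -0.34 ± 0.07 (limma adjusted p = 0.00571), and -0.38 without it. Tecpr1, a lysosomal tether that binds ATG12-ATG5, was at 1655, 2434, 1685 and 1927 against 1466, 1368, 1431 and 1606. All bigenic mice were higher, by little in the first and the third, and the log2(fold change) was 0.38 ± 0.12 (limma adjusted p = 0.0376), or 0.26 without the second. This call was lost without the fourth bigenic mouse or without the first, the second or the third nontransgenic mouse (limma adjusted p between 0.0749 and 0.104), and after the GC and length correction (0.20, limma adjusted p = 0.0536). Snx14, a sorting nexin, had a value of 0.06 (limma adjusted p = 0.725), or -0.034 without the second bigenic mouse.

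Mitf, the MiT/TFE factor found by the rule, was at 248, 325, 334 and 310 normalized counts in bigenic mice and at 266, 247, 239 and 257 in the nontransgenic mice. The first bigenic mouse was at the level of the controls and the other 3 were above them. On the log2 scale the difference was 0.26 ± 0.12 (limma adjusted p = 0.103), and 0.36 without the first bigenic mouse (limma adjusted p = 0.0225). Tfeb, Ulk4, Atg9b, Atg4a and Atg10 were not analysed here. A further 4 autophagy genes appear in the table under an older symbol, so the rule did not find them. Of these, Tfe3 (listed as Tcfe3) was upregulated by 0.28 on the log2 scale (limma adjusted p = 0.0392), and Atg101 (listed as 9430023L20Rik), the partner of ATG13, had a log2(fold change) of -0.42 and was downregulated (limma adjusted p = 0.0174). The remaining pair, Vmp1 (listed as Tmem49) and Epg5 (listed as 5430411K18Rik), had values of -0.04 and 0.17 and did not pass the test (limma adjusted p = 0.793 and 0.0994). They were -0.14 and 0.20 without the second bigenic mouse, and Epg5 then passed (limma adjusted p = 0.0201). The calls of Tfe3 and Atg101 were lost in at least one fit that left out a single mouse, with the largest adjusted p at 0.111 and 0.0538.

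**Figure D2:**
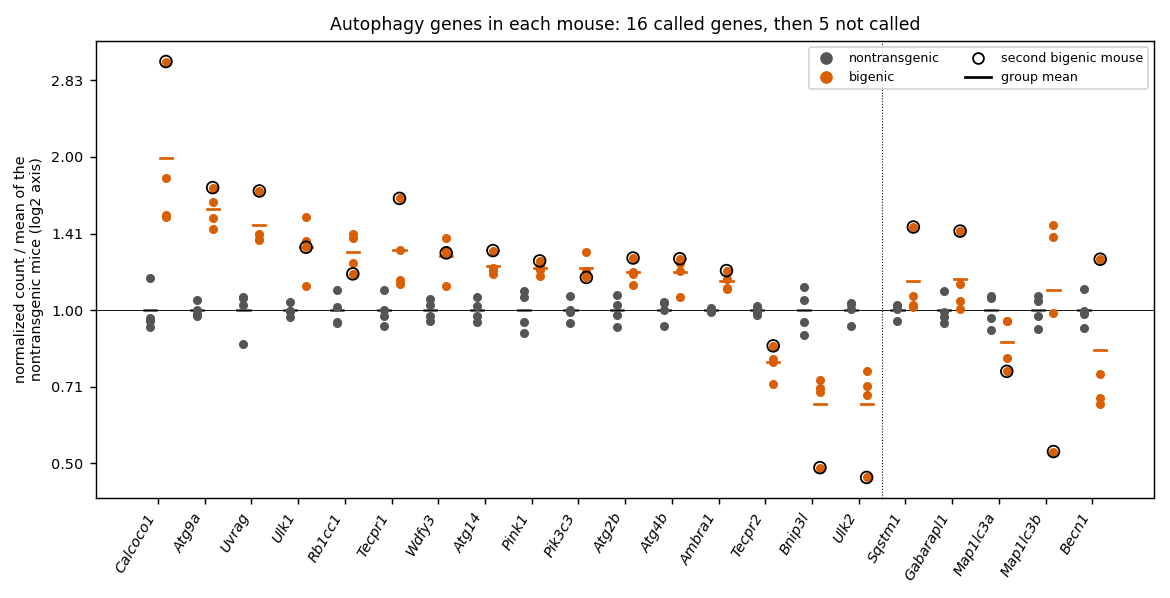
Normalized count of each mouse divided by the mean of the nontransgenic mice (vertical axis, log2 scale) for the 16 called autophagy genes and for 5 that were not called (horizontal axis); points are mice, short lines are group means, and rings mark the second bigenic mouse. The groups are separate for the called genes, from Calcoco1 at the left to Ulk2 at the right, while the ring lies away from the other bigenic points for Sqstm1, Map1lc3b and Becn1.

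The second bigenic mouse differed from the other bigenic mice across the whole set of autophagy genes. It was the highest of the 4 bigenic mice for 26 of the 42 genes, the lowest for 12 and in between for 4, whereas over all genes it was the highest for 43.2% and the lowest for 38.6%. The median absolute log2 ratio of this mouse to the mean of the other 3 was 0.30 for the autophagy genes and 0.30 for all genes. For genes such as Becn1, Map1lc3b and Atg16l2 it lay on the other side of the nontransgenic mean from the mean of the other 3. Among the 4 bigenic mice it had the highest summed counts of neuronal markers (162490) and of markers of Camk2a-lineage excitatory neurons (61503). Its sums were the lowest for astrocyte (124227), microglial (4840), oligodendrocyte (66067), endothelial (4276) and choroid plexus markers (8385). Single markers went both ways within these lists. This mouse was the highest bigenic mouse for the glial markers Aldh1l1, Slc1a3, S100b, Sox9, Mag, Mobp and Cnp, and the lowest for the neuronal markers Gad1 and Gad2. The part of cell types in the values of this mouse was not tested. Across 10260 genes with a known sequence composition, its log2 ratio to the other 3 had a Spearman rho of 0.42 with the GC content of the exons and of -0.03 with their length. Across the 42 autophagy genes rho was 0.30 with GC content and 0.11 with length. These are correlations across genes of 1 library, and genes are not independent replicates. When a trend on GC content and length was removed from each mouse, a step chosen after seeing the data, 8 autophagy genes were called higher and 4 lower, against a background of 38.4% called, with 20.1% higher and 18.3% lower. The 5 upward calls lost were those of Ulk1, Ambra1, Atg2b, Pink1 and Tecpr1 (limma adjusted p = 0.0885, 0.359, 0.0523, 0.230 and 0.0536), and Map1lc3a was added to the lower genes (-0.41, limma adjusted p = 0.0488). The part of GC content in the differences between the groups was not tested further.

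**Figure D3:**
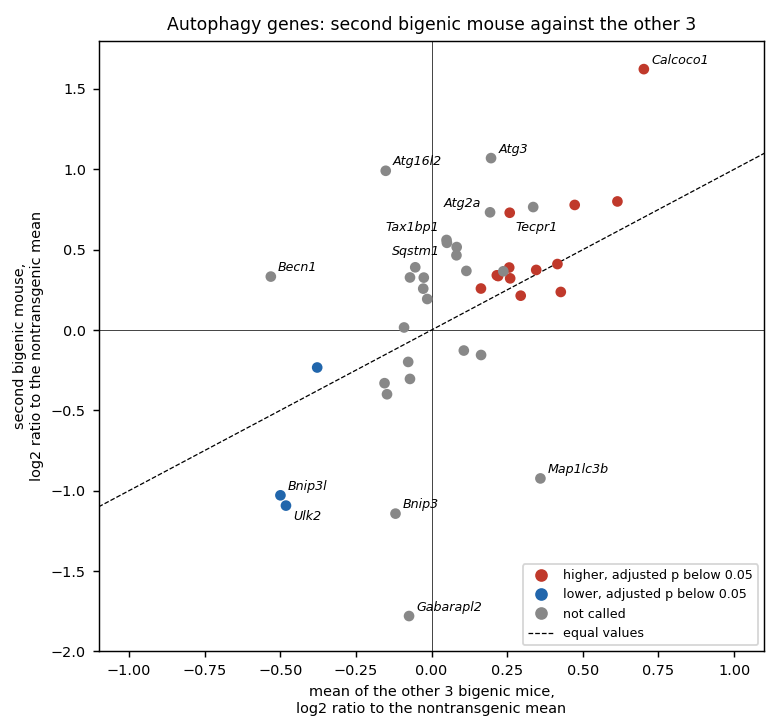
Log2 ratio to the nontransgenic mean in the second bigenic mouse (vertical axis) against that of the mean of the other 3 bigenic mice (horizontal axis) for the 42 autophagy genes, colored by the call; the dashed line marks equal values. Calcoco1 lies above the line and Ulk2 and Bnip3l below it on the same side of 0, whereas Becn1, Map1lc3b and Atg16l2 have opposite signs on the 2 axes.

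Divided by the length of the longest coding transcript, the autophagy genes of the nontransgenic cortex covered a wide range of levels. Gabarapl1 was the most abundant with 3990 normalized counts per kb, followed by Map1lc3a with 3110, Sqstm1 with 2500 and Pink1 with 2330. Map1lc3b and Tax1bp1 were next with 1610 and 1600, which are too close to be ordered. The lowest levels were those of Atg7 (43.8), Mitf (51.7) and Wipi1 (88.0). These 4 are a pair of ATG8 genes, a cargo receptor and a mitophagy kinase, whereas called initiation and membrane genes lay in the middle of the range, with 259 for Ulk1, 444 for Atg9a and 658 for Rb1cc1. The levels were not corrected for exon windows of 50 bases that occur more than once in the genome. The unique share was 64.6% for Map1lc3b and 55.9% for Atg7, against 99.7% for Sqstm1 and 100% for Pink1. The rank of Map1lc3b against Sqstm1 and Pink1 is therefore uncertain. Among the 4 genes with the highest values as computed, only Pink1 passed the test of a difference between the groups.

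Genes around this machinery were examined in 5 further lists, which hold 107 tested transcripts. Of these, 34 were higher and 8 lower, where 20.5% of all genes were higher and 15.4% lower. In either direction 39.3% were called, near the 35.9% of all genes. By list, in the order below, the share called was 43.3%, 47.1%, 31.8%, 45.8% and 21.4%. In the list of mTORC1 and AMPK control, the nutrient and energy sensors that act on ULK1, 10 of 30 genes were higher and 3 lower, with a median log2(fold change) of 0.10. Sesn2, a stress-induced inhibitor of mTORC1, was at 352, 447, 243 and 331 normalized counts in bigenic mice and at 165, 148, 178 and 163 in the controls (log2(fold change) 1.04 ± 0.17, limma adjusted p = 0.00160). Prkab2, a subunit of AMPK, rose by 0.71 and Fnip2, a partner of folliculin, by 0.69 (limma adjusted p = 0.000368 and 0.000312). Rragd, a GTPase that recruits mTORC1 to the lysosome, fell by 0.58 on the same scale (limma adjusted p = 0.000907). No mouse of one group reached the range of the other for any of these 4 genes.

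In the list of PI3P control and the C9orf72 complex, 7 of 17 genes were higher and 1 lower, with a median of 0.15. C9orf72, the gene most often mutated in familial amyotrophic lateral sclerosis and frontotemporal dementia, was at 1155, 920, 1159 and 1117 normalized counts in bigenic mice and at 753, 761, 670 and 701 in the nontransgenic mice (0.59 ± 0.09, limma adjusted p = 0.00137). The groups did not overlap, and the second bigenic mouse was the closest to the controls. Vac14, the scaffold of the kinase that makes PI(3,5)P2, rose by 0.61, Rubcn, a brake on the UVRAG form of the PI3-kinase complex, by 0.46, and Zfyve1, a PI3P-binding protein, by 0.44 (limma adjusted p between 0.00103 and 0.00296).

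Of 22 transcripts in the list of fusion with the lysosome, 7 were higher and none was lower by limma (1 was lower at an unadjusted p-value below 0.05), with a median of 0.13. Called genes included Vps18, Vps33a and Vps39, subunits of the HOPS tether, with log2(fold changes) of 0.59, 0.58 and 0.41, and the SNARE Vamp7 with 0.77 (limma adjusted p between 0.000370 and 0.00272). Receptors and mitophagy factors outside the rule were higher for 8 and lower for 3 of 24, with a median of 0.10. Optn, a receptor gene mutated in amyotrophic lateral sclerosis, was at 695, 1189, 707 and 774 against 482, 478, 488 and 519. This difference was 0.74 ± 0.16 on the log2 scale (limma adjusted p = 0.00569), and 0.56 without the second bigenic mouse. Ubqln2, a ubiquitin shuttle protein gene mutated in the same disease, was at 3677, 2058, 3967 and 3871 against 7132, 6116, 6110 and 5478. Here the difference was -0.91 ± 0.19 (limma adjusted p = 0.00572), and -0.69 without that mouse. Both genes separated the groups in every mouse. Rtn3, a receptor for tubular endoplasmic reticulum, had a value of -0.64 and Ccpg1, another receptor for this organelle, of 0.35 (limma adjusted p = 0.000823 and 0.00770).

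Transcription regulators outside the rule were higher for 2 and lower for 1 of 14, with a median of -0.04. Atf4, the central factor of the integrated stress response, was at 10199, 11470, 6822 and 7318 normalized counts in bigenic mice and at 3315, 3207, 3331 and 4049 in the nontransgenic mice. All 4 bigenic mice were far above the controls, the first and the second most of all, and the log2(fold change) was 1.34 ± 0.16 (limma adjusted p = 0.000321), larger than that of any autophagy gene. Ddit3, which encodes CHOP and is a known target of ATF4, was at 829, 1549, 509 and 645 against 309, 397, 367 and 498. The third bigenic mouse was just above the highest control, and the log2(fold change) was 1.06 ± 0.30 (limma adjusted p = 0.0205), or 0.74 without the second bigenic mouse. Foxk2, a repressor of autophagy genes, had a value of -0.42 (limma adjusted p = 0.0138).

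**Figure D4:**
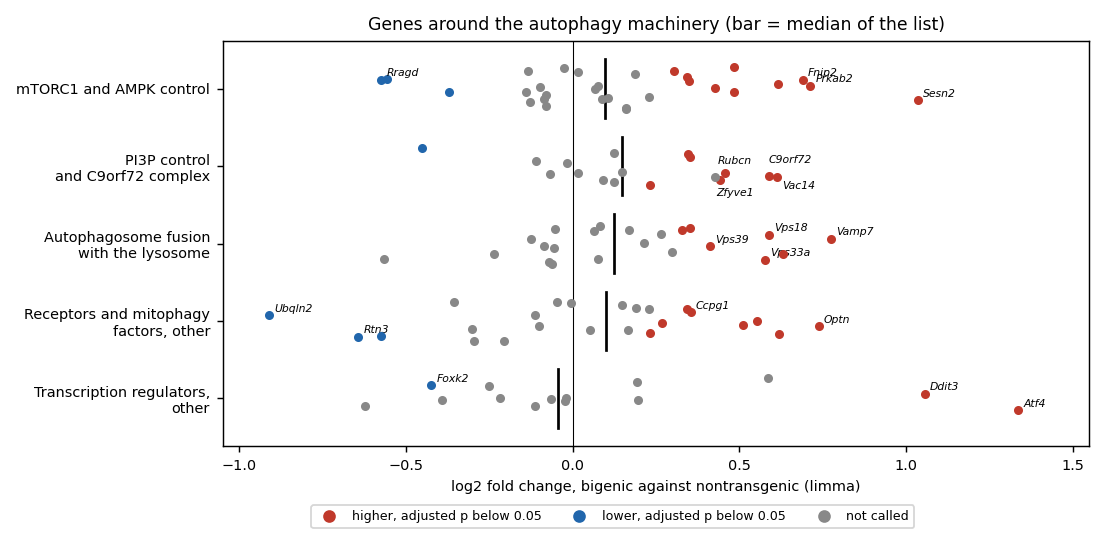
Log2(fold change) of 107 transcripts in 5 lists of genes around the autophagy machinery (horizontal axis), 1 row for each list; points are genes colored by the call, thick vertical bars are the median of each list, and vertical scatter within a row has no meaning. Atf4 and Ddit3 lie furthest to the right and Ubqln2 furthest to the left, and the medians lie between -0.04 and 0.15.

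Markers of the cell types in the tissue also moved with the groups, and their part in the values of the autophagy genes was not tested. Of 6 markers of Camk2a-lineage excitatory neurons, 2 were lower and 1 was higher, and their summed normalized counts were 42674 to 61503 in the bigenic mice against 71721 to 78968 in the controls. Neuronal markers were lower for 5 of 10 and higher for 1 (118301 to 162490 against 145595 to 163808). Astrocyte markers were lower for 4 of 9 (124227 to 143709 against 151259 to 163002), and microglial markers for 5 of 8 (4840 to 6379 against 6608 to 7811). Over all genes 15.4% were called lower and 20.5% higher. Sums are weighted toward the most abundant genes. Most of the astrocyte sum was Slc1a2 (78858 to 101564 against 101337 to 111078), while Gfap, Slc1a3, Aldoc, S100b and Sox9 did not pass the test. Oligodendrocyte markers were higher for 1 of 9 and endothelial markers lower for 1 of 5, with overlapping sums. All 4 choroid plexus markers in the table, of 8 listed, were higher (8385 to 19459 against 363 to 1203). Clic6, F5 and Kl lay below the read threshold in every control and passed it only through bigenic mice. Their direction was thus fixed by the filter. Most of the sum was Ttr (7741 to 18520 against 236 to 1023), which passed the threshold in every mouse. No marker was at 0 in any mouse. The endogenous Tardbp, at 4908 to 5502 in the bigenic mice and 6116 to 7116 in the controls, differed by -0.33 on the log2 scale (limma adjusted p = 0.00645).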

How the data were processed

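Per the labels and the methods, the authors selected poly(A) RNA, sequenced single reads of 50 bases, trimmed adaptors with cutadapt, mapped them to mm9 with Bowtie 0.12.7, kept unique mappings and counted reads per exon with bedtools, summing exons to genes. The values that the authors deposited are a signal for each of 28662 transcripts and mouse, whole numbers in steps that differ between mice, and their scaling is not given in the sources used here. What 1 read is worth was estimated from the spacing of values up to 300 (8 of 8 simulated steps were recovered within 1 percent). Reads are worth more than 1 in 3 of 8 columns, so whole reads could not be recovered and no count test was run, although a count test was foreseen for raw counts. A second deposited table holds the authors' DESeq2 mean, fold change and p-values. Only its symbols were used.

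Genes with a share of 10 RPM or more of all values in any mouse (10588 genes, 39 of the 42 autophagy genes in every mouse; the others were Atg7, Bnip3 and Gabarapl2) were compared as log2(value + 1) with limma 3.58.1 (lmFit, eBayes with trend) in R 4.3.3. This scale understates changes of low genes. The two-sided Benjamini-Hochberg adjustment ran over all genes, with a threshold of 0.05. On simulated data for this comparison with 10588 genes, 49 of 50 genes changed 1.5-fold and 50 of 50 changed 2-fold were called in each direction, beside 7 unchanged genes. The simulation gave every gene and mouse the same small dispersion and held no mouse that stands apart. It therefore does not give the sensitivity in these data, where the second bigenic mouse differs from the others. Positions, exon overlaps, GC content and length come from GENCODE M1 on the same build, and promoters from RefSeq. Columns name a group but no replicate number.

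The members and lists were chosen with earlier results of these data known. Values in every mouse are given for each called gene and for Sqstm1, Map1lc3a, Map1lc3b, Gabarapl1 and Becn1, and in each further list up to 4 called genes with the smallest adjusted p are named. Genes under older symbols and single values of other genes that were not called were added after their values were seen. Alternatives were pseudocounts of 10 and 0.1, no filter, the filter in every mouse, equal totals, quantile normalization, array weights, an adjusted p below 0.01, a 1.5-fold change, each mouse left out in turn and, chosen after seeing the data, a correction for GC content and length and the addition of older symbols. Python 3.11.15, numpy 2.4.6 and pandas 2.3.3 were used.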

Additional observations from a re-analysis of the deposited data

Results flagged for a closer look

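For each of the 42 autophagy genes, the highest and the lowest mouse of each group were compared with the rest of that group by Dixon's ratio, the gap to the nearest mouse divided by the range of the group, against Dixon's 95% critical value. Of 84 groups, 8 held such a mouse, where chance gives about 5 percent, and 6 of the 8 were in the second bigenic mouse. That mouse was high for Atg16l1 (2153 normalized counts), Sqstm1 (9722), Becn1 (3098), Uvrag (1231) and Atg16l2 (707), and low for Bnip3l (1400). The other 2 were the fourth nontransgenic mouse for Calcoco1 (1212, the highest control) and the third nontransgenic mouse for Atg7 (126, the lowest control). The calls of Uvrag, Bnip3l and Calcoco1 were kept with any one mouse left out.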

How the results depend on the processing

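Of 669 values recomputed for single autophagy genes, none of those for the 16 called genes changed direction, and 8 of the 16 passed the test in all 16 settings. The 13 upward calls became 8 with the correction for GC content and length chosen after seeing the data, 6 at an adjusted p below 0.01, 2 with a 1.5-fold change, and 7 to 14 with 1 mouse left out (8, 7 and 7 without the first, the second and the third nontransgenic mouse). The 3 downward calls ranged from 3 to 4 with 1 mouse left out. The median log2(fold change) was 0.087 with array weights and 0.096 to 0.21 with 1 mouse left out. In the neighbouring lists, the 8 lower genes became 17 with array weights and 6 to 13 with 1 mouse left out (13 without the second bigenic mouse). Of the cell type markers, the 7 higher genes became 4 with the filter in every mouse. That filter takes Clic6, F5 and Kl, which lay below it in every control, out of the test. The 17 lower genes became 11 without the filter and 10 to 18 with 1 mouse left out (10 or 11 without any one mouse other than the first or the second bigenic mouse). The cause of the other changes was not tested.

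Direction changed for 8 genes that were not called. With array weights the log2(fold change) was -0.033 for Atg16l1, -0.053 for Wipi1, -0.038 for Atg12, -0.045 for Atg16l2 and -0.089 for Snx14, and with quantile normalization -0.037 for Atg16l1, -0.014 for Atg12, -0.00547 for Map1lc3b and -0.00453 for Pik3r4. With the GC and length correction it was -0.016 for Atg16l1, -0.10 for Atg4d and -0.024 for Pik3r4. With 1 mouse left out it ranged from -0.069 to 0.068 for Atg16l1, -0.054 to 0.12 for Wipi1, -0.015 to 0.076 for Atg12, -0.13 to 0.27 for Atg16l2, -0.047 to 0.15 for Atg4d, -0.034 to 0.14 for Snx14 and -0.15 to 0.34 for Map1lc3b. Array weights also called Becn1, Map1lc3b, Mitf, Atg2a, Atg7 and Nbr1. The upward share of the calls was 81.2% as reported, 82.4% with equal totals and 75.0% with quantile normalization.

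No paired analysis was possible because the columns of the deposited table carry no replicate number. Depth limits mainly Gabarapl2, Atg7 and Bnip3, which were below the filter in at least one mouse. Intervals and floors cover counting error or the spread of 4 mice only.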
